A study of Mus musculus with 6 samples.

Results

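The genes described here are 7 that serve neurotrophin signalling: the ligands Bdnf and Ntf3, the Trk receptor genes Ntrk2 and Ntrk3, the pan-neurotrophin receptor gene Ngfr, the sorting receptor gene Sort1, and Vgf, a secreted-peptide gene that brain-derived neurotrophic factor (BDNF) induces. They were chosen by symbol for their role and not by their values, and all 7 of them were found among the 18228 genes of the count table. Poly(A) RNA was sequenced from the hypothalamus of 3 mice aged 22 months (aged) and 3 mice aged 12 weeks (young), drawn at random from 5 mice per age after a behavioural experiment, in a study of hypothalamic genes and cognitive decline with age. Both groups had free food and water under a regular light cycle and were killed under pentobarbital anaesthesia; the labels name no treatment and no strain, genotype, sex or batch. Each library is from 1 mouse.

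Neurotrophins are secreted as precursors, cut to a mature dimer, and bind Trk receptor kinases, which signal through Ras and MAP kinase, phosphoinositide 3-kinase and phospholipase C. BDNF binds TrkB, the product of Ntrk2, and neurotrophin-3, the product of Ntf3, binds TrkC, the product of Ntrk3; Ngfr encodes a receptor of the tumour necrosis factor receptor family that binds all neurotrophins, and, together with sortilin, their precursors. In the hypothalamus, BDNF and TrkB are known for restraining feeding and body weight. Ntrk2 and Ntrk3 also give truncated receptors without a kinase, a form of TrkB that astrocytes make, and gene-level counts do not separate these from the full-length forms.

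Library totals ran from 17208291 to 18884403 counted reads. In edgeR's quasi-likelihood test of aged against young, 474 of 14702 genes tested were higher and 535 lower at a Benjamini-Hochberg adjusted p under 0.05, which is 6.86% of genes in either direction, 3.22% higher and 3.64% lower; with scaling by total counts alone the split was 627 to 446, and on log2(FPKM + 1) it was 616 to 293. Without single libraries the counts ran from 95 to 901 higher and from 55 to 732 lower. Reads of 4 Y-linked genes summed to between 3394 and 3617 in each aged library and between 24 and 32 in each young one, so age and sex cannot be told apart in any comparison below. All 15 hypothalamic markers, among them Avp, Pomc and Sim1, were detected, with summed levels of 1376 to 1500 CPM in aged and 1396 to 1591 CPM in young libraries. Within these sums 1 marker was called higher in aged mice (Avp, 1.51-fold, edgeR adjusted p = 0.00248) and 1 lower (Hcrt, 0.565-fold, edgeR adjusted p = 0.0161). CPM is a gene's share of the TMM-scaled library total.

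None of the 7 genes passed the test between ages (0 higher, 0 lower; 1 lower in DESeq2). At an unadjusted p under 0.05 there were 4 of them (Bdnf, Ntrk2, Ngfr and Sort1), against 26.2% of all genes tested. The CPM ranges of the 2 ages did not overlap for 4 of the 7, Bdnf (aged above young) and Ntrk2, Ntrk3 and Sort1 (aged below young); over all genes tested this share was 31.7%. The median log2 fold change of the 7 was -0.052, against -0.0035 over all genes tested. With 3 mice against 3, an exact permutation test on 1 gene cannot give a p under 0.1.

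**Figure D1:**
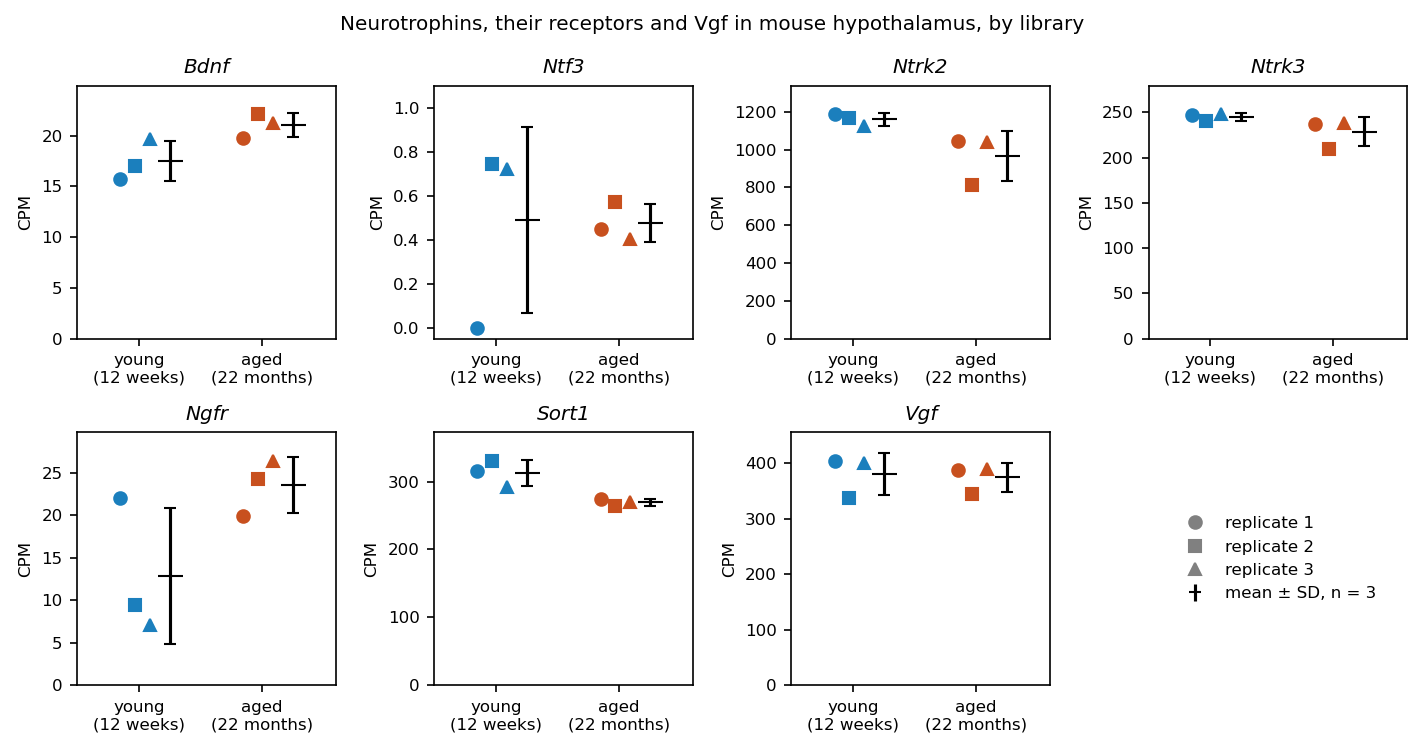
Level of each of the 7 genes in CPM (vertical axes, each from its own scale) in the 3 young and 3 aged libraries; each point is 1 library, its shape the replicate number, and the bar is the mean ± SD. The young Ngfr values span 7.12 to 22.0 CPM, with young replicate 1 inside the aged range, while the aged Bdnf points lie above and the aged Sort1 points below all young ones.

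Levels can be ranked between genes only per length, so FPKM was used for that. Vgf stood highest at 95.6 ± 7.46 FPKM (SD over all 6 libraries), followed by Sort1 at 40.5 ± 3.19, Ntrk2 at 35.9 ± 4.24, Ntrk3 at 10.1 ± 0.514, Ngfr at 5.35 ± 2.39, Bdnf at 3.002 ± 0.421 and Ntf3 at 0.235 ± 0.133. The ranges of Sort1 and Ntrk2 overlapped (lowest Sort1 value 37.5, highest Ntrk2 value 39.6), though Sort1 was above Ntrk2 within each of the 6 libraries. Ngfr and Bdnf also overlapped, and Ngfr was the higher in 5 of 6 libraries. The other neighbours in this order had separate ranges. The lengths behind the FPKM values were 29513 bases for Ntrk2 and 23378 for Ntrk3, against 2053 to 7173 for the other 5, and a transcript shorter than that length has its FPKM understated.

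Bdnf, the ligand of TrkB, had 19.7, 22.1 and 21.2 CPM in the 3 aged libraries and 15.8, 17.0 and 19.6 CPM in the 3 young ones. All aged values were above all young ones, but aged replicate 1 and young replicate 3 were 19.7 and 19.6 CPM. The means were 21.0 ± 1.21 and 17.5 ± 1.98 CPM (SD, n = 3 each), a log2 fold change of 0.27 ± 0.10 SE or 1.20-fold (95% interval 1.03 to 1.40), and edgeR's adjusted p was 0.127. The value rests on between 269 and 426 reads per library. Its adjusted p ran from 0.0894 to 0.305 over the 18 alternatives, and the log2 fold change from 0.21 to 0.37.

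The Bdnf row sums transcripts from several starts: the RefSeq promoter table (GRCm38.p6) lists 7 for this gene. The sequence below is the 120 bases before the third of them, at chr2:109692316-109692435 on the plus strand. It is shown because it holds, in capitals, the octamer known as a CREB-binding element of the activity-regulated Bdnf promoter. Any link to the CREB and early genes described further on was not tested, and counts per gene do not show which start was used.
Bdnf start 3: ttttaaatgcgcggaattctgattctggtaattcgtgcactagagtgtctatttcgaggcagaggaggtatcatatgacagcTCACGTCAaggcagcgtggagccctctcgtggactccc
The octamer TCACGTCA, searched on both strands from 250 bases before to 50 after each start, was found in 145 of 32851 windows of that length (0.441%), and in 1 of the 7 Bdnf windows, beginning 38 bases before the start. It overlaps the shorter motif TGACG, read on the other strand, which 20.8% of windows hold. The full element TGACGTCA (1.79% of windows) and the AP-1 element TGACTCA (5.20%) were in none of the 11 windows listed for Bdnf, Ntf3, Ntrk2 and Ngfr, and the E-box CACGTG (7.15%) was in 1 of them, a window of Ntf3. Ntrk3, Sort1 and Vgf were not matched in that table.

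Ntf3, the ligand of TrkC, was near the detection limit, with 8, 11 and 7 reads in the aged and 0, 13 and 13 in the young libraries. In CPM these were 0.448, 0.571 and 0.404 in aged and 0, 0.747 and 0.723 in young mice, where a count of 0 allows up to 3 reads or 0.176 CPM (counting error only). Young replicate 1 thus stood below all other libraries and the other two young ones above them. The log2 fold change of -0.05 ± 0.69 SE has a 95% interval from 0.331-fold to 2.81-fold (edgeR adjusted p = 0.973). That interval is too wide to show either a rise or a fall, or the lack of one.

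Ntrk2, which encodes TrkB, was the most heavily counted of the 7, with 15625 to 20324 reads per library. It had 1045, 811 and 1040 CPM in aged and 1188, 1168 and 1124 CPM in young libraries. Aged replicate 2 was the lowest by a wide margin, and the young libraries lay close together (SD 32.6 CPM, against 134 in the aged). The means were 965 and 1160 CPM (n = 3 each), a log2 fold change of -0.26 ± 0.09 SE or 0.832-fold (95% interval 0.721 to 0.961), with an edgeR adjusted p of 0.109. Without aged replicate 2 the log2 fold change was -0.14. Longer genes were lower in the aged libraries in general (median log2 fold change 0.11 in the shortest of 10 length classes and -0.12 in the longest, where Ntrk2 and Ntrk3 stand), and with that trend removed Ntrk2 was at -0.095 (adjusted p = 0.567).

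Ntrk3, which encodes TrkC, had 237, 210 and 239 CPM in aged and 247, 240 and 248 CPM in young libraries. The ranges nearly touched (239 CPM in aged replicate 3, 240 CPM in young replicate 2), with aged replicate 2 again the lowest. The log2 fold change was -0.10 ± 0.06 SE, 0.933-fold (95% interval 0.846 to 1.03; edgeR adjusted p = 0.348). It was -0.031 without aged replicate 2 and 0.054 with the length trend removed. Over the 6 libraries the log2 CPM of Ntrk3 and Ntrk2 had a Pearson r of 0.955, a description only, since these libraries share the age groups and the lowest library.

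Ntrk2 and Ntrk3 were read beside 10 astrocyte markers, all detected. Their summed level was 3198 to 4345 CPM in aged and 4825 to 5061 CPM in young libraries, with aged replicate 2 the lowest as for both receptors. In edgeR 0 of the 10 rose and 4 fell (Aqp4, Slc1a2, Sox9 and Slc4a4), against 3.22% higher and 3.64% lower over all genes tested. Gfap alone lay above 0, at a log2 fold change of 0.21 (edgeR adjusted p = 0.269). The calls of Slc1a2 and Slc4a4 were each lost in 5 of 18 alternatives, both without aged replicate 3 and without each young library (adjusted p up to 0.0859 and 0.0797). That of Slc4a4 was also lost without aged replicate 1, and that of Slc1a2 with the length trend removed. In 7 markers of oligodendrocyte precursors, summed levels were 317 to 390 CPM in aged and 444 to 521 CPM in young libraries, and 2 fell (Gpr17 and Neu4). The part of these cell types in the receptor values was not tested, and in whole tissue fewer cells of a type and less RNA per cell cannot be told apart.

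Ngfr varied more between mice of 1 age than any other of the 7 but Ntf3. It had 20.0, 24.3 and 26.4 CPM in aged libraries and 22.0, 9.36 and 7.12 CPM in young ones, from 128 to 468 reads. Young replicate 1 lay within the aged range, and the other two young libraries were far below it, so the young group had a coefficient of variation of 62.5% against 14.0% in the aged. The means of 23.6 ± 3.30 and 12.8 ± 8.01 CPM (SD, n = 3 each) gave a log2 fold change of 0.88 ± 0.33 SE, 1.84-fold (95% interval 1.11 to 3.07), with an edgeR adjusted p of 0.126. Without young replicate 1 it was 1.52 (edgeR adjusted p = 0.00539, when 1.77% of genes passed); in the other 17 alternatives it did not pass (log2 fold change 0.60 to 1.05).

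The Ngfr product is known to mark cholinergic neurons of the basal forebrain. Of 5 markers of cholinergic neurons, all detected, the summed level was 51.5, 40.3 and 59.3 CPM in aged and 32.0, 18.3 and 7.84 CPM in young libraries. Within the young group Ngfr had the same order as this sum. Within the aged group it did not: aged replicate 1 was lowest for Ngfr and aged replicate 2 for the sum. Of the single markers, Gbx1 alone ran the other way in the young libraries, at 0.234, 0.517 and 0.556 CPM (4, 9 and 10 reads). In edgeR 2 of the 5 rose and 0 fell, against 3.22% higher and 3.64% lower over all genes tested. They were Lhx8 and Gbx1, transcription factors of forebrain cholinergic neurons, with log2 fold changes of 2.01 ± 0.30 and 2.05 ± 0.43. Gbx1 had 4 to 41 reads per library, and its call was lost without any 1 library but aged replicate 2, at adjusted p up to 0.0986. Chat, which makes acetylcholine, had 11.9, 10.2 and 13.3 CPM in aged and 8.73, 4.94 and 1.001 CPM in young libraries (edgeR adjusted p = 0.121). Slc5a7 and Slc18a3 did not pass either (edgeR adjusted p = 0.0907 and 0.115). The part of cholinergic neurons in the Ngfr values was not tested.

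**Figure D2:**
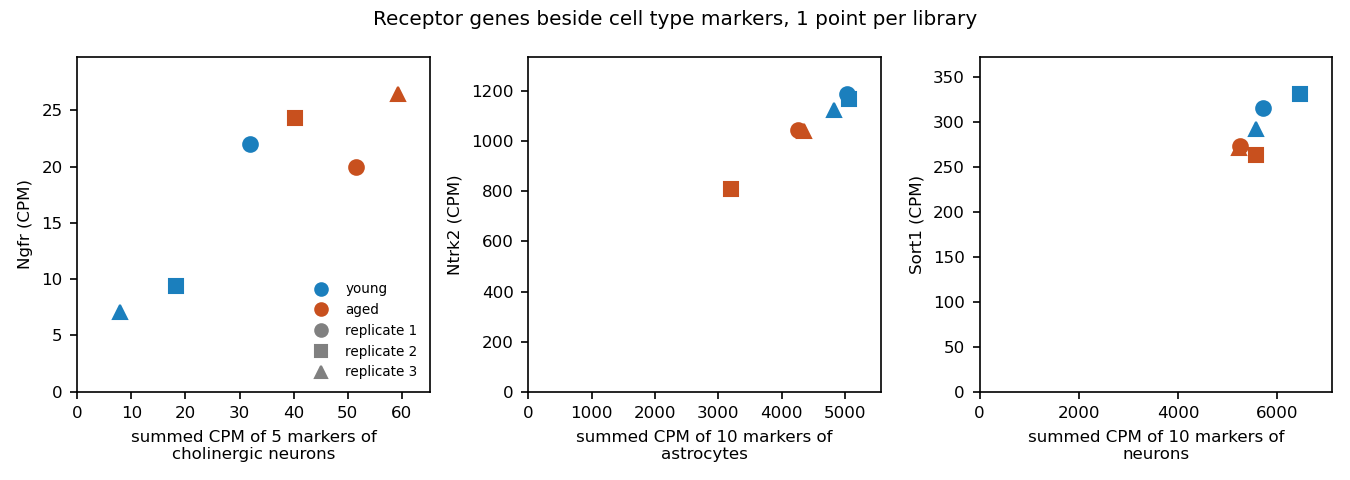
CPM of Ngfr, Ntrk2 and Sort1 (vertical axes) against the summed CPM of cholinergic, astrocyte or neuronal markers (horizontal axes), 1 point per library. Young replicate 1 lies at 32.0 CPM of cholinergic markers, above the other young libraries at 18.3 and 7.84, and aged replicate 2 is lowest for both Ntrk2 and astrocyte markers.

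Sort1 encodes sortilin, which sorts BDNF precursor into the regulated secretory pathway and is a co-receptor for neurotrophin precursors. It had 274, 264 and 271 CPM in aged and 316, 331 and 292 CPM in young libraries. The groups did not overlap, and the aged libraries were the tighter (coefficient of variation 1.89%, against 6.30% in the young). The means were 270 ± 5.11 and 313 ± 19.7 CPM (SD, n = 3 each), a log2 fold change of -0.22 ± 0.06 SE or 0.861-fold (95% interval 0.784 to 0.947). The edgeR adjusted p was 0.0626, the smallest of the 7, and the rank by p was 1321 of 14702 genes. DESeq2 called it lower (adjusted p = 0.0445, when 8.91% of genes passed), and in the other 17 alternatives it did not pass, with adjusted p up to 0.205. With the length trend removed, its log2 fold change was -0.15 (edgeR adjusted p = 0.135). Summed levels of 10 neuronal markers were 5247, 5567 and 5223 CPM in aged and 5715, 6453 and 5558 CPM in young libraries. Within the young group this sum had the same order as Sort1. Within the aged group it did not, as aged replicate 2 was highest for the sum and lowest for Sort1. In edgeR 0 of the 10 markers passed, against 6.86% of all genes tested. The part of neurons in the Sort1 values was not tested.

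Other receptors of the sortilin family lay in the same direction. They are 5634 to 15999 bases long, and longer genes were lower in the aged libraries in general. With the length trend removed, the Sorcs2 call was lost and Sorl1 still passed. Sorl1, a sorting receptor that also handles the amyloid precursor and TrkB, had 228, 213 and 217 CPM in aged and 301, 302 and 294 CPM in young libraries. Its log2 fold change was -0.45 ± 0.05 SE (edgeR adjusted p = 0.00396), and it passed in all 18 alternatives. Sorcs2, a partner of the Ngfr product in binding BDNF precursor, fell by 0.42 (edgeR adjusted p = 0.0320, lost in 8 of 18 alternatives; in 5 of the 6 that leave out a library, all but aged replicate 2, at adjusted p of up to 0.107). Sorcs1 and Sorcs3 had log2 fold changes of -0.19 and -0.13 and did not pass (edgeR adjusted p = 0.0921 and 0.375).

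**Figure D3:**
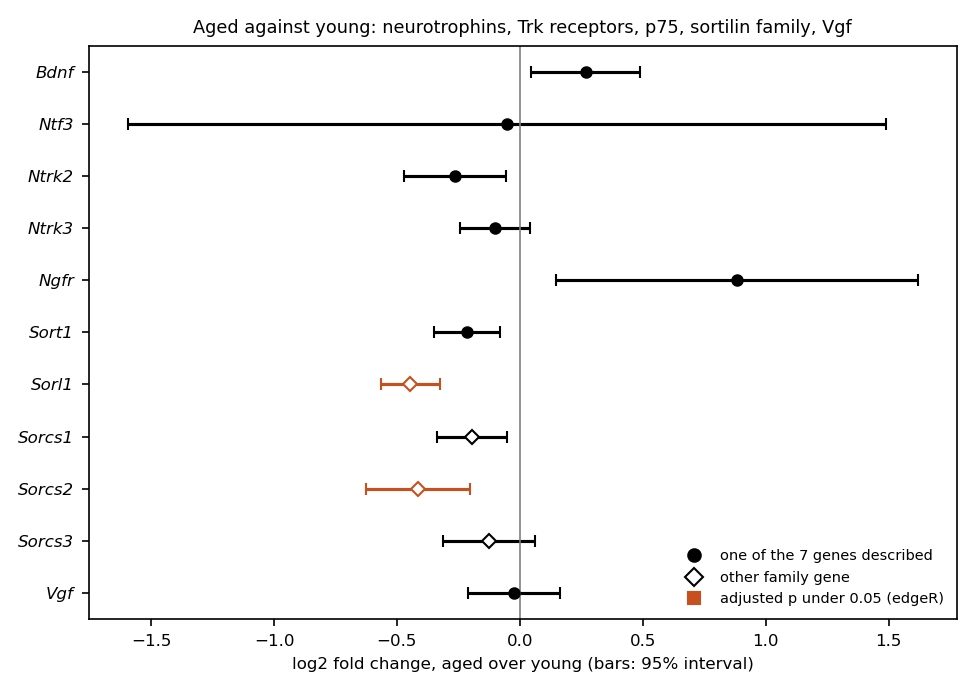
Log2 fold change of aged over young (horizontal axis) with its 95% interval for the 7 genes (filled circles) and 4 related receptor genes of the sortilin family (open diamonds); colour marks an edgeR adjusted p under 0.05. Sorl1 (-0.45) and Sorcs2 (-0.42) passed, and none of the filled circles did.

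Vgf encodes a granin-like precursor of secreted peptides in neurons and endocrine cells and is a standard readout of BDNF signalling. It had 389, 344 and 390 CPM in aged and 405, 337 and 401 CPM in young libraries. Replicate 2 was the lowest in both groups, and the groups overlapped. The means of 374 ± 26.1 and 381 ± 38.1 CPM (SD, n = 3 each) differed by less than the spread, with a log2 fold change of -0.024 ± 0.083 SE and an edgeR adjusted p of 0.887. The 95% interval ran from 0.864-fold to 1.12-fold. Of 12 granin and prohormone processing genes, 1 rose and 0 fell, against 3.22% higher and 3.64% lower over all genes tested. It was Scg5, the chaperone of prohormone convertase 2, at 0.24 ± 0.05 (edgeR adjusted p = 0.0322). Its call was lost in 6 of 18 alternatives, 5 of which leave out 1 library other than aged replicate 2, at adjusted p up to 0.139. Scg3 and Pcsk2 were at -0.20 and -0.24 and Scg2 at 0.18, and these did not pass; Scg3 passed in 2 of 18 alternatives (without aged replicate 2, adjusted p = 0.0495, and with the length trend removed, 0.0442), and Pcsk2 in 2 (DESeq2, 0.0475, and the replicate block, 0.0372).

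In the rest of the pathway, 19 of 126 genes tested from 8 lists passed (15.1%, against 6.86% of all genes tested), 11 higher and 8 lower. These lists were drawn up with earlier results of these data known, and the total was 5 to 23 without single libraries (5 without aged replicate 3, 7 without aged replicate 1, 9 without young replicate 1 and 8 without young replicate 3). Ntf5, the gene of another TrkB ligand, had at most 2 reads in any library and was not tested; it was named for completeness outside the rule for named genes. Among genes for the cleavage of neurotrophin precursors, Pcsk7, Plat and Pcsk6 did not pass, with log2 fold changes of 0.19, 0.24 and 0.093; Plat was at 0.37 without aged replicate 2 (adjusted p = 0.0277).

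Downstream of the Trk receptors, 0 of 34 adaptor and kinase genes rose and 2 fell, with a median log2 fold change of 0.016. Over all genes tested, 3.22% were higher and 3.64% lower. Shc3, a neuronal adaptor of Trk receptors, was at -0.44 ± 0.11 (edgeR adjusted p = 0.0393), and Pik3r1, a regulatory subunit of phosphoinositide 3-kinase, at -0.26 ± 0.07 (edgeR adjusted p = 0.0486); these calls were lost in 8 and 12 of 18 alternatives, at adjusted p up to 0.124 and 0.204. Leaving out 1 library ended the Shc3 call except for young replicate 3, and the Pik3r1 call except for aged replicate 2. Camk4, a kinase that acts on CREB, and Hras had log2 fold changes of -0.43 and 0.21 and did not pass (adjusted p = 0.0502 and 0.0879). Camk4 passed in 6 of 18 alternatives, none of which leaves out a library, with an adjusted p from 0.00643 in DESeq2 to 0.163 without aged replicate 3, and Hras passed without young replicate 2 (adjusted p = 0.0453). Of 15 partners of the Ngfr product, 0 rose and 1 fell: Rtn4r, the Nogo receptor, with 9.02, 9.81 and 10.9 CPM in aged and 14.7, 24.0 and 15.4 CPM in young libraries (edgeR adjusted p = 0.0273, lost without aged replicates 1 and 3, at 0.0972 and 0.0768). Its co-receptor gene Lingo1 was at -0.37 (adjusted p = 0.0612, and 0.0106 in DESeq2), and Maged1 and Bex1 were at 0.16 and 0.20.

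Early genes that BDNF and other stimuli induce were higher in part. Of 22, 7 rose and 0 fell (median log2 fold change 0.57), and over all genes tested 3.22% were higher and 3.64% lower. The 7 were Fosb, Per1, Nr4a1, Klf4, Junb, Egr1 and Dusp4, of which the last 3 stand outside the rule for named genes. Fosb had 48.3, 36.1 and 61.7 CPM in aged and 15.4, 16.3 and 13.2 CPM in young libraries, a log2 fold change of 1.70 ± 0.18 (edgeR adjusted p = 0.00205). Per1, Nr4a1 and Klf4 were at 0.97 ± 0.10, 1.30 ± 0.18 and 1.78 ± 0.27. The number that rose was 4 without aged replicate 3, young replicate 1 or young replicate 3, each of which ended the calls of Junb, Egr1 and Dusp4 (adjusted p of all their lost calls 0.0521 to 0.152). These genes are known to answer to many stimuli, glucocorticoids among them, and are not specific to BDNF. Vgf, also induced by BDNF, was at 0.983-fold, and Bdnf itself at 1.20-fold. What raised the early genes was not tested. Of 16 regulators of Bdnf transcription, Crem, a CREB family factor that is itself inducible, rose by 0.89 ± 0.17 (edgeR adjusted p = 0.0211, lost in 4 of 18 alternatives, those without aged replicates 1 and 3 and young replicates 1 and 3, at 0.0576 to 0.0725) and Tcf4 fell by 0.29 (edgeR adjusted p = 0.0356, lost in 8 of 18 at up to 0.323, 5 of them without 1 library other than aged replicate 2). Nfat5 was at -0.23 and did not pass.

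In the families of glial cell line-derived and ciliary neurotrophic factors, 0 of 17 tested genes rose and 2 fell. The shares over all genes tested were 3.22% higher and 3.64% lower. Ret, the receptor kinase of the first family, had 48.0, 54.6 and 41.5 CPM in aged and 66.3, 88.9 and 89.4 CPM in young libraries (log2 fold change -0.76 ± 0.13 SE, edgeR adjusted p = 0.0138, lost without aged replicates 1 and 3, at 0.0551 and 0.0635). Its co-receptor gene Gfra2 had 47.2, 54.5 and 45.9 CPM in aged and 65.3, 68.3 and 67.0 CPM in young libraries (-0.44 ± 0.08, adjusted p = 0.0149, lost without aged replicates 1 and 3 and young replicate 3, at 0.0514 to 0.0723). Ret is also carried by midbrain dopamine neurons, whose 5 markers summed to 107, 125 and 86.8 CPM in aged and 120, 235 and 301 CPM in young libraries (0 rose and 3 fell in edgeR), the order that Ret had within each group; their part was not tested. For Bdnf, which is abundant in cortex and hippocampus, 7 markers of those regions summed to 74.5, 89.5 and 81.8 CPM in aged and 94.9, 295 and 146 CPM in young libraries. Within the aged group Bdnf had the same order as these markers, and within the young group it did not; between the ages the marker sums were lower and Bdnf higher in the aged libraries. The part of these regions in the Bdnf values was not tested.

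Genes whose log2 CPM was most like each of the 7 over the 6 libraries were sought among 11186 genes with a mean log2 CPM of at least 3. With 6 libraries many genes reach a high r (59 genes at 0.95 or more for Bdnf, 123 for Ntrk2 and 179 for Sort1), so the names describe these libraries only. Pdgfra, a receptor of oligodendrocyte precursors and fibroblasts, was the most like Ntrk2 (r = 0.999), with 79.0, 57.6 and 78.7 CPM in aged and 91.1, 89.3 and 85.5 CPM in young libraries; Kank1 and Mmaa followed at 0.994 and 0.993. For Ntrk3 these were Adhfe1, Nhsl1 and Fer (0.994, 0.990 and 0.990), and for Ngfr Sts, Lypd6b and Septin4 (0.988, 0.988 and 0.986). For Bdnf they were Ccdc59, Snrpd1 and Tmem251 (0.992, 0.989 and 0.987), for Sort1 Tmem151b, Pcdh10 and Dagla (0.996, 0.996 and 0.993), and for Vgf Ap1m1 and Aasdh (0.994 and 0.986). Ntf3 is not described in this way further, as it had at most 13 reads; its nearest were Slc25a20, Med6 and Actr3. Between the 7 themselves, Bdnf and Sort1 ran opposite (r = -0.916), and Ngfr and Vgf were nearly unrelated (r = 0.093).

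**Figure D4:**
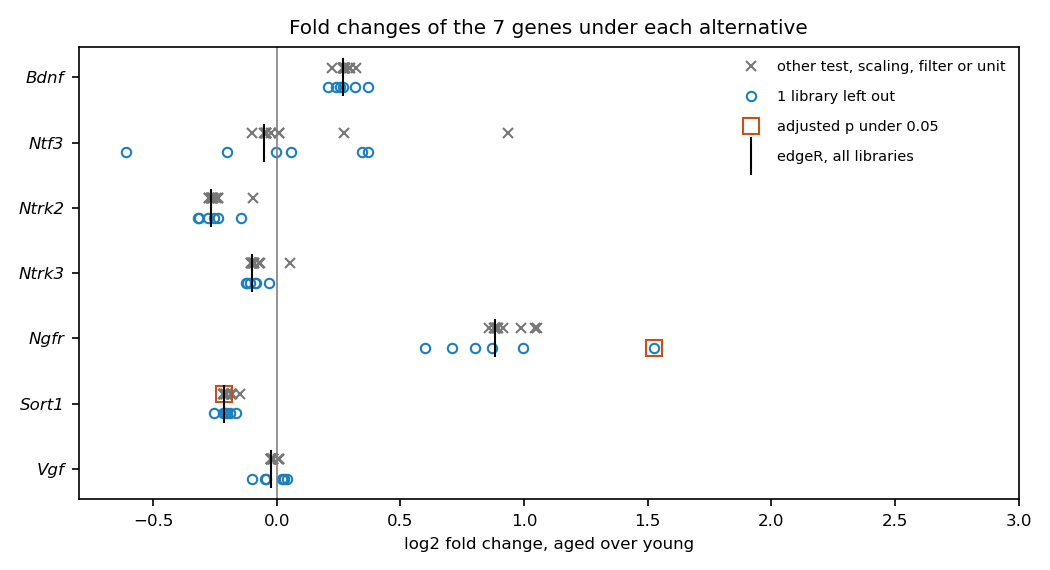
Log2 fold change of aged over young (horizontal axis) for the 7 genes with all libraries in edgeR (bar), under other tests, scalings, filters or units (crosses) and with 1 library left out (circles); squares mark an adjusted p under 0.05. Bdnf stayed above 0 and Ntrk2 and Sort1 below 0 throughout, while Ngfr ran from 0.60 to 1.52 and Ntf3 and Vgf lay on both sides of 0.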

How the data were processed

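Hypothalamic total RNA (mirVana kit) went into poly(A)-selected, strand-keeping TruSeq libraries, per the labels' protocols. The deposited table holds raw read counts per gene, 1 column per mouse. The deposited FPKM table holds the same counts over a gene length and the library total (18228 of 18228 genes match, at a relative tolerance of 1e-06). Trimmomatic, HISAT2, Cufflinks, HTSeq, DESeq and the build GRCm39 are named, per the submitters' processing notes; the annotation release, strand setting and handling of multi-mapped reads are not stated there. Reads of overlapping or antisense genes could therefore count toward a gene.

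The main test was edgeR 4.0.16 (R 4.3.3; quasi-likelihood, TMM) on the deposited counts, aged against young, without covariates. The filterByExpr filter, set to a count of 10 and a total of 15, left 14702 genes, and a call is a Benjamini-Hochberg adjusted p under 0.05 over all of them. SEs and 95% intervals come from that test. Alternatives were 3 other scalings, 2 other filters, DESeq2 1.42.0, edgeR's robust estimation, limma-voom, limma-trend on log2(FPKM + 1) or log2(FPKM + 0.1) (limma 3.58.1), a replicate block, a loess length correction and leaving out each library. The fit was tested on simulated data. The genes, lists and tests were chosen with earlier results of these data known. Named genes are the 7, the 4 with the smallest adjusted p in each of 8 pathway lists, and the 3 most like each of the 7 by Pearson r, some of which are not reported here; 18 marker lists are given as summed levels and counts. No GRCm39 coordinates are given; promoter bases are from RefSeq on GRCm38.p6, and protein sequences were not used here.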

Additional observations from a re-analysis of the deposited data

How the results depend on the processing

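Over the 18 alternatives, Bdnf, Ntrk2, Ngfr and Sort1 kept their direction. DESeq2 called 1 of the 7 genes lower, Sort1 (log2 fold change -0.21, adjusted p = 0.0445). Directions turned only for genes near 0: Ntf3 was at 0.93 in limma-voom, 0.0099 on log2(FPKM + 1), 0.27 on log2(FPKM + 0.1) and 0.010 with the replicate block, Vgf at 0.0036 with total counts only, 0.0075 on log2(FPKM + 1) and 0.0076 on log2(FPKM + 0.1), and Ntrk3 at 0.054 with the length trend removed. The cause was not tested. Leaving out each library in turn gave -0.61 to 0.37 for Ntf3, -0.099 to 0.043 for Vgf and 0.60 to 1.52 for Ngfr, 0 to 1 of the 7 called higher (Ngfr, without young replicate 1), 95 to 901 genes higher, 55 to 732 lower and 5 to 23 pathway genes called; fewer libraries enter these fits. Genes called lower numbered 293 on log2(FPKM + 1), 303 on log2(FPKM + 0.1) and 346 with the length trend removed. Ntf3 did not pass the filter of a CPM of at least 1 in 3 libraries.

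Replicate numbers 1 to 3 recur in both groups, but nothing in the labels ties same-numbered mice. Their deviations from the group means correlated at 0.095, 0.037 and -0.14 across genes, and only aged replicate 1 correlated best with its own number. The fit with the replicate block called 523 genes higher and 667 lower and 0 of the 7 genes. Depth limits Ntf3, at 0 to 13 reads per library.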
